A study of Homo sapiens with 8 samples.

Results

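The genes described here are 33 genes for folding, quality control and degradation of proteins in the endoplasmic reticulum (ER), taken by gene symbol from a table of 19447 named genes. They were chosen by function, with earlier results of these data known: 10 chaperones and co-chaperones, 2 lectin chaperones, 4 disulfide isomerases, 11 degradation genes, 4 genes of the stress sensors and 2 genes of protein entry. All 33 were found in the table, and all 33 passed the filter on low counts in every comparison. The cells were K562, an established human leukaemia line with the genotype labelled WT in every library. RNA was sequenced from 4 libraries of cells not given Lip-1 (the controls, numbered 1 to 4 and labelled Day 0), from 3 libraries of cells given 10 µM Lip-1 for 24 h (replicates 2 to 4, labelled Day 1) and from 1 library of cells given 20 µM Lip-1 for 24 h (replicate 1, labelled Day 1). The labels do not spell out Lip-1, a name often used for the lipid peroxidation inhibitor liproxstatin-1. Treatment and labelled day coincide and cannot be told apart, and whether the controls received a vehicle is not given in the sources used here.

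Proteins bound for the cell surface, the secretory route or the ER itself enter the ER unfolded, and chaperones, lectins and disulfide isomerases fold them there. Chains that do not fold are drawn back through the membrane and sent to the proteasome, which is called ER-associated degradation. When unfolded chains build up, the membrane sensors IRE1, PERK and ATF6 start the unfolded protein response, which raises many of these same genes through the transcription factors XBP1, ATF4 and cleaved ATF6. ATF6 is cleaved and XBP1 mRNA is spliced in that response, and counts per gene show neither event.

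The libraries held 71151415 to 141307169 counts each, and the least counted gene of the 33, DERL3, had 47 counts in its lowest library. Levels are given as CPM, the count scaled to a library total of 1000000. The 10 K562 markers summed to 4360 to 7660 CPM in the controls, 3617 to 4622 CPM at 10 µM and 2769 CPM at 20 µM, and each was above 1 CPM in all 8 libraries. Markers of other cell types were low beside them: 5 lymphocyte markers summed to 12.9 to 17.1, 13.6 to 23.1 and 6.40 CPM in the same order of groups, 6 monocyte and granulocyte markers to 0.430 to 2.99, 0.664 to 1.43 and 4.00 CPM, and 7 epithelial and fibroblast markers to 32.0 to 55.4, 34.2 to 43.3 and 27.1 CPM. None of these 18 markers was at 0 in every library, and their part in the results was not tested. In libraries of whole cultures, a change in the share of cells that express a gene and a change in RNA per cell cannot be told apart. The labels do not say that the libraries of a group came from separate cultures, so p-values measure only the spread between these libraries, which may be technical.

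The 33 genes together took 0.614%, 0.710%, 0.709% and 0.650% of all counts in controls 1 to 4, 0.653%, 0.694% and 0.709% in 10 µM replicates 2 to 4, and 1.35% in the 20 µM library. The sum at 10 µM lay within the range of the controls, and only the 20 µM library stood outside it. HSPA5, the main ER chaperone, alone took 0.0489% to 0.0670% of counts in the controls, 0.0589% to 0.0821% at 10 µM and 0.325% at 20 µM.

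**Figure D1:**
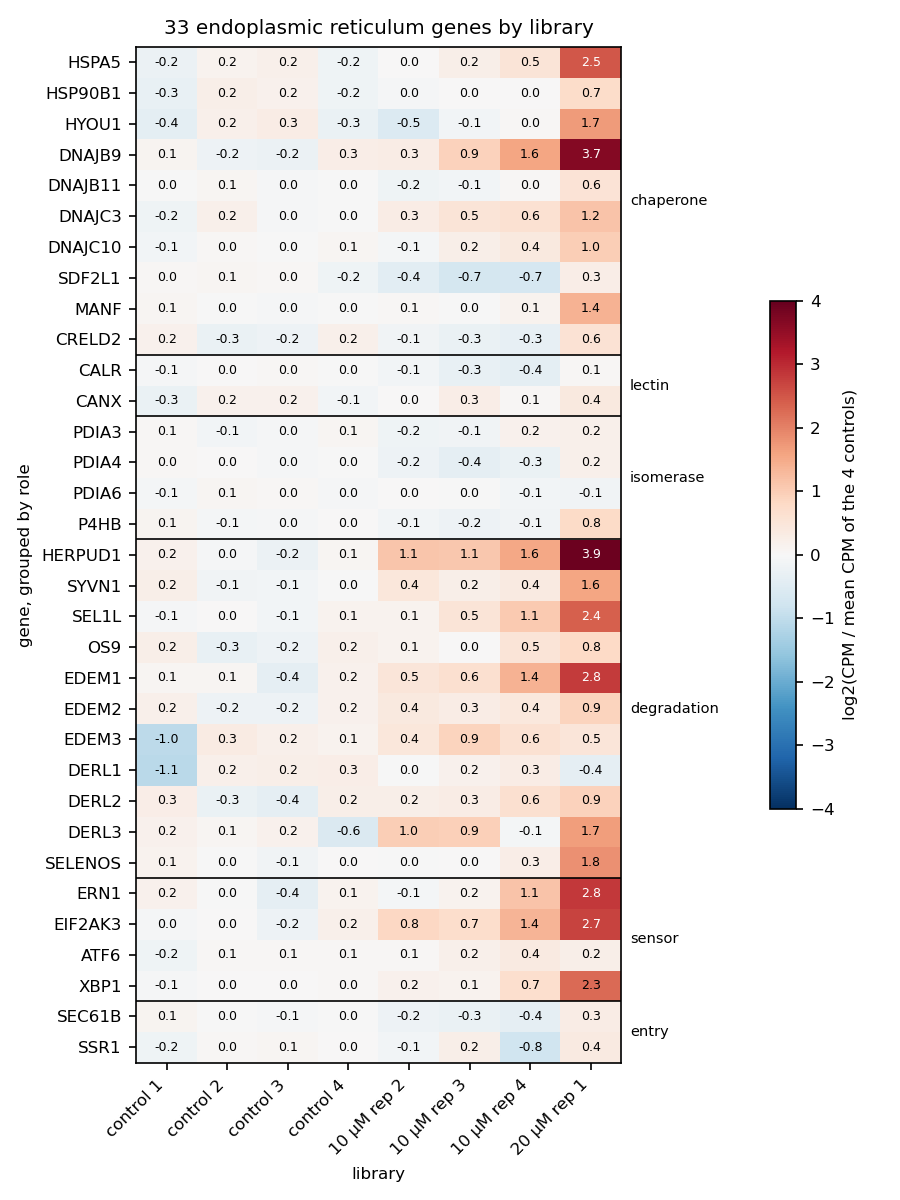
Heat map of the 33 genes (rows, by role) in the 8 libraries (columns), coloured by log2 of the CPM over the mean of the 4 controls. The 20 µM library was above the other 7 libraries for 29 genes, while the 10 µM libraries held genes above and below the controls.

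At 10 µM, 4 of the 33 genes rose and 4 fell against the controls by edgeR's quasi-likelihood test at an adjusted p under 0.05. These 8 are 24.2% of the genes, beside 19.1% of all 14857 genes tested (9.34% higher and 9.79% lower), so the share lay near the background. The median log2 change was 0.06 over the 33 genes and 0.05 over all genes. The risers were HERPUD1 and EDEM1 of the degradation route, the co-chaperone DNAJB9 and the sensor EIF2AK3. The fallers were SDF2L1, CALR, PDIA4 and SEC61B. HERPUD1, EIF2AK3 and SDF2L1 passed the test under all 15 alternatives tried, and the other 5 each lost the call when at least 1 library was left out. The count of 8 became 3 without 10 µM replicate 4, 4 without 10 µM replicate 3, 4 without control 3 and 5 without control 2, while the calls over all genes went from 2842 to 1463, 1364, 1640 and 1880.

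In CPM, 9 genes had all 3 libraries at 10 µM above all 4 controls (27.3%, beside 21.8% of all genes), and 5 had all 3 below (15.2%, beside 10.7%). CPM leave out the TMM factors, the scaling used in the tests, which were 0.903 to 1.00 in the controls and 1.02 to 1.09 at 10 µM. Without these factors the 10 µM libraries lie higher against the controls, so narrow gaps depend on the scaling. The same holds wherever libraries are said below to lie above or below the controls. The 9 were DNAJB9, DNAJC3, HERPUD1, SYVN1, EDEM1, EDEM2, EDEM3, EIF2AK3 and XBP1. The 5 were SDF2L1, CALR, PDIA4, P4HB and SEC61B. No disulfide isomerase or lectin was among the 9, and no degradation or sensor gene was among the 5. Both shares lay near those of all genes and each role holds few genes, and a split by role was not tested.

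At 20 µM the pattern was wider and went one way. Against the 10 µM libraries, 21 of the 33 genes were higher and 0 lower by edgeR (63.6%, beside 26.3% of all genes, with 11.7% higher and 14.6% lower). The median log2 difference was 0.81 over the 33 genes and 0.01 over all genes. All 10 chaperones, 5 of 11 degradation genes, 3 of 4 sensor genes, 2 of 4 isomerases and 1 of 2 entry genes passed, and neither lectin did. Of the 21 genes, 16 passed under every alternative tried, and the count ran from 18 to 22. There is 1 library at 20 µM, which the test assumes to vary like the other groups, so this comparison has no replicate check of its own. It shares the 10 µM libraries with the comparison above.

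In CPM, the 20 µM library was above all other 7 libraries for 29 genes (87.9%, beside 35.3% of all genes) and below them for 1, PDIA6 (3.03%, beside 27% of all genes). In either direction, 62.3% of all genes lay outside the other 7 libraries. EDEM3, DERL1 and ATF6 lay within the range of the other libraries. The 20 µM level was more than 2-fold over the control mean for 14 genes (42.4%, beside 27.4% of all genes) and more than 2-fold under it for 0.

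With the 4 treated libraries taken as 1 group, only HERPUD1 and EIF2AK3 passed, both higher (6.06%, beside 14.2% of all 13101 genes tested, with 7.47% higher and 6.69% lower). This count was unstable: it was 0 without any one of the 4 controls or without 10 µM replicate 4, 4 without 10 µM replicate 2, and 9 without the 20 µM library, of which 4 were higher and 5 lower. The calls over all genes moved with it, from 1855 to 567, 149, 64 and 315 without controls 1 to 4, to 312 without 10 µM replicate 4, to 2063 without 10 µM replicate 2 and to 3021 without the 20 µM library. For 9 genes (27.3%, beside 18.1% of all genes) all 4 treated libraries were above all 4 controls, and for 0 were they all below (beside 10.5%).

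Library names in the labels use letters for controls 1 and 4, the 20 µM library and 10 µM replicate 4, and digits for the other 4 libraries. The labels do not call this a batch. Within the digit-named libraries alone, 10 µM replicates 2 and 3 were set against controls 2 and 3. There 3 genes were higher (HERPUD1, EIF2AK3 and EDEM1) and 5 lower (HSP90B1, HYOU1, SDF2L1, CALR and PDIA4), beside 3137 calls over all genes. The number of genes tested in that fit is not given here, so these calls have no share of all genes beside them. Within the letter-named libraries, 0 of the 33 genes and 0 of all genes passed by edgeR, and 9 of the 33 had an unadjusted p under 0.05. A test of whether the response differed between the namings called 0 of the 33 genes by edgeR (beside 0% of all 14014 genes), 0 by limma-voom (beside 0 of all genes) and 0 by DESeq2 (beside 12 of all genes). The lowest adjusted p by edgeR was 0.890, and by edgeR 7 of the 33 genes had an unadjusted p under 0.05 (10 by DESeq2 and 2 by limma-voom). Those 7 all had a higher log2 change in the letter-named libraries, which include the 20 µM library. HSP90B1 and HYOU1, 2 of the 7, fell in the digit-named libraries. Counts of unadjusted p over all genes are not given here, for this test or for the letter-named libraries.

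Short promoter motifs of the unfolded protein response were looked for because 21 of these genes were higher together in 1 library. The RefSeq promoter table (build GRCh38.p14, 250 bases before to 50 after the start) held 30 of the 33 genes (not PDIA3, DERL1 and DERL3). The ER stress response element (ERSE) was searched as CCAAT, any 9 bases and CCACG. ERSE-II was searched as ATTGG, any 1 base and CCACG. The unfolded protein response element (UPRE) was searched as TGACG followed directly by TGG, and the CARE motif, the kind bound by ATF4 with its partners, as TGATG, any 1 base and AAT, all on both strands. HSPA5, XBP1, CALR and CANX are shown for ERSE because the first pair were among the genes with the largest difference at 20 µM and the second pair did not pass there. HERPUD1, HYOU1 and SDF2L1 are shown because they were the 3 genes with ERSE-II. Each is written along the gene's own strand with the motif in capitals and 15 bases on either side. In CALR, HYOU1 and SDF2L1 the motif lies on the opposite strand, so its capitals read as the reverse complement.
HSPA5: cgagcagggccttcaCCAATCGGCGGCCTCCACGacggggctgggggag
XBP1: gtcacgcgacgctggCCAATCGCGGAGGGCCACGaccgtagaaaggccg
CALR: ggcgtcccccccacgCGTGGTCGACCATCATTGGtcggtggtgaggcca
CANX: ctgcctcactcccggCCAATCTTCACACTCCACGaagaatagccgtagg
HERPUD1: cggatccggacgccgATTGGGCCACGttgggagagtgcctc
HYOU1: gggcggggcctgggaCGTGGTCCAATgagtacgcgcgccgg
SDF2L1: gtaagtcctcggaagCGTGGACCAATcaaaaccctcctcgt

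On GRCh38.p14 these windows are HSPA5 at chr9:125241376-125241424 (minus strand), XBP1 at chr22:28800588-28800636 (minus), CALR at chr19:12938369-12938417 (plus), CANX at chr5:179698763-179698811 (plus), HERPUD1 at chr16:56932010-56932050 (plus), HYOU1 at chr11:119057259-119057299 (minus) and SDF2L1 at chr22:21642099-21642139 (plus). The motif spans bases -66 to -48 from the start in HSPA5 and -52 to -34 in XBP1, and -117 to -107 in HERPUD1. ERSE was found in 6 of the 30 promoters (20.0%): HSPA5, HSP90B1, CRELD2, CALR, CANX and XBP1. Of 15096 promoters of genes in the count table, 0.126% held it. HSP90B1 held 2 copies.

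ERSE-II was found in 3 of 30 (10.0%, beside 0.079% of the 15096) and UPRE in 2 of 30, DNAJC10 and HYOU1 (6.667%, beside 0.868%). In HYOU1, which has 2 copies of ERSE-II, the UPRE overlaps one of them. CARE was found in 0 of 30 (beside 0.636%). Any of ERSE, ERSE-II and UPRE was present in 10 of 30 promoters (33.3%, beside 1.067%). ERSE was present in 4 of the 21 genes that were higher at 20 µM and in 2 of the other 9 with a promoter. A match describes letters in this window only. The 33 genes were chosen by function, and many are known to rise in this response. A share above that of all promoters thus describes the choice of genes and is no result of these counts.

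All 10 chaperones were higher at 20 µM than at 10 µM, by log2 differences of 0.62 (DNAJB11) to 2.67 (DNAJB9). HSPA5 (also called BiP, chr9:125234853-125241330), the ER's HSP70, stood at 489, 641, 669.5 and 508 CPM in controls 1 to 4, at 589, 683 and 821 in 10 µM replicates 2 to 4, and at 3247 in the 20 µM library. The 10 µM libraries overlapped the controls, and the 20 µM library was 5.63 times the control mean. By edgeR, HSPA5 at 10 µM differed from control by a log2 change of 0.14 (SE 0.17, adjusted p = 0.636), and at 20 µM it was higher than at 10 µM by 2.22 (SE 0.23, adjusted p = 0.000519). The letter-named controls 1 and 4 were the lower ones for HSPA5, as for HSP90B1 and HYOU1 below, and the digit-named controls 2 and 3 the higher ones. For other genes, among them CRELD2, OS9, EDEM2 and DERL2, controls 1 and 4 were instead the higher ones.

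DNAJB9 (ERdj4, chr7:108569568-108574850), a J-protein partner of HSPA5 that acts in the control of the sensor IRE1, stood at 9.20, 7.34, 7.15 and 10.3 CPM in the controls, at 10.4, 16.1 and 25.1 at 10 µM, and at 109 at 20 µM. Every treated library was above every control, though 10 µM replicate 2 was barely so. DNAJB9 rose at 10 µM (log2 change 0.89, SE 0.25, adjusted p = 0.0390 by edgeR), but the change was 0.54 (adjusted p = 0.149) without 10 µM replicate 4, and the call was also lost without 10 µM replicate 3, without any one of the controls and by limma-voom. It was 12.8 times the control mean at 20 µM (log2 2.67 over 10 µM, SE 0.35, adjusted p = 0.00114 by edgeR).

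HYOU1, an HSP70-like nucleotide exchange factor for HSPA5, stood at 205, 309.8, 331 and 223 CPM in the controls, at 183, 248 and 276 at 10 µM, and at 874 at 20 µM. MANF, a small secreted protein that binds HSPA5, stood at 23.5, 22.0, 21.8 and 22.3 CPM in the controls, at 23.4, 22.1 and 24.6 at 10 µM, and at 58.5 at 20 µM. HYOU1 and MANF thus stood apart in the 20 µM library only. At 20 µM the log2 difference from 10 µM was 1.89 for HYOU1 (SE 0.31, adjusted p = 0.00281) and 1.32 for MANF (SE 0.14, adjusted p = 0.000537 by edgeR).

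HSP90B1 (GRP94), the ER's HSP90, stood at 641, 932, 897 and 709.8 CPM in the controls, at 772, 797 and 795 at 10 µM, and at 1336 at 20 µM. The spread of the controls covered the 10 µM libraries. Its difference at 20 µM (log2 0.76 over 10 µM, SE 0.23, adjusted p = 0.0414 by edgeR) was lost without control 4 or without any one of the 10 µM libraries, and was 1.23 with the replicate numbers as a block. DNAJC3 (p58IPK), a co-chaperone of HSPA5, stood at 31.7, 41.0, 34.7 and 35.3 CPM in the controls, at 43.4, 51.4 and 54.1 at 10 µM, and at 79.2 at 20 µM. All its treated libraries were above all controls, but the change at 10 µM did not pass (log2 0.35, adjusted p = 0.0904 by edgeR), and that from 10 to 20 µM did (0.67, SE 0.19, adjusted p = 0.0267), though not without 10 µM replicate 2.

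DNAJC10 (ERdj5), a J-protein with thioredoxin domains that reduces disulfides of chains sent for degradation, stood at 149, 167, 159 and 172 CPM in the controls, at 153, 189 and 211 at 10 µM, and at 323 at 20 µM. DNAJB11 (ERdj3), a J-protein that binds unfolded chains, stood at 68.6, 73.9, 67.7 and 69.1 CPM in the controls, at 62.4, 65.1 and 72.2 at 10 µM, and at 102 at 20 µM. CRELD2, an ER stress gene, stood at 18.4, 13.6, 14.3 and 18.9 CPM in the controls, at 14.8, 13.5 and 13.1 at 10 µM, and at 24.6 at 20 µM. In all 3 the 10 µM libraries overlapped the controls. Their log2 differences at 20 µM over 10 µM were 0.81 (SE 0.18, adjusted p = 0.00996), 0.62 (SE 0.13, adjusted p = 0.00962) and 0.83 (SE 0.22, adjusted p = 0.0226 by edgeR), and that of CRELD2 did not pass with the replicate block (adjusted p = 0.164) or without 10 µM replicate 3 or 4.

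SDF2L1, which works with HSPA5 and ERdj3, went the other way at 10 µM. It stood at 201, 204, 200.3 and 174 CPM in the controls, at 145, 119 and 122 at 10 µM, and at 235 at 20 µM. The 10 µM libraries were all below the controls and the 20 µM library was above all of them. SDF2L1 fell at 10 µM (log2 -0.73, SE 0.12, adjusted p = 0.00569 by edgeR) and was higher at 20 µM than at 10 µM (0.87, SE 0.17, adjusted p = 0.00704).

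**Figure D2:**
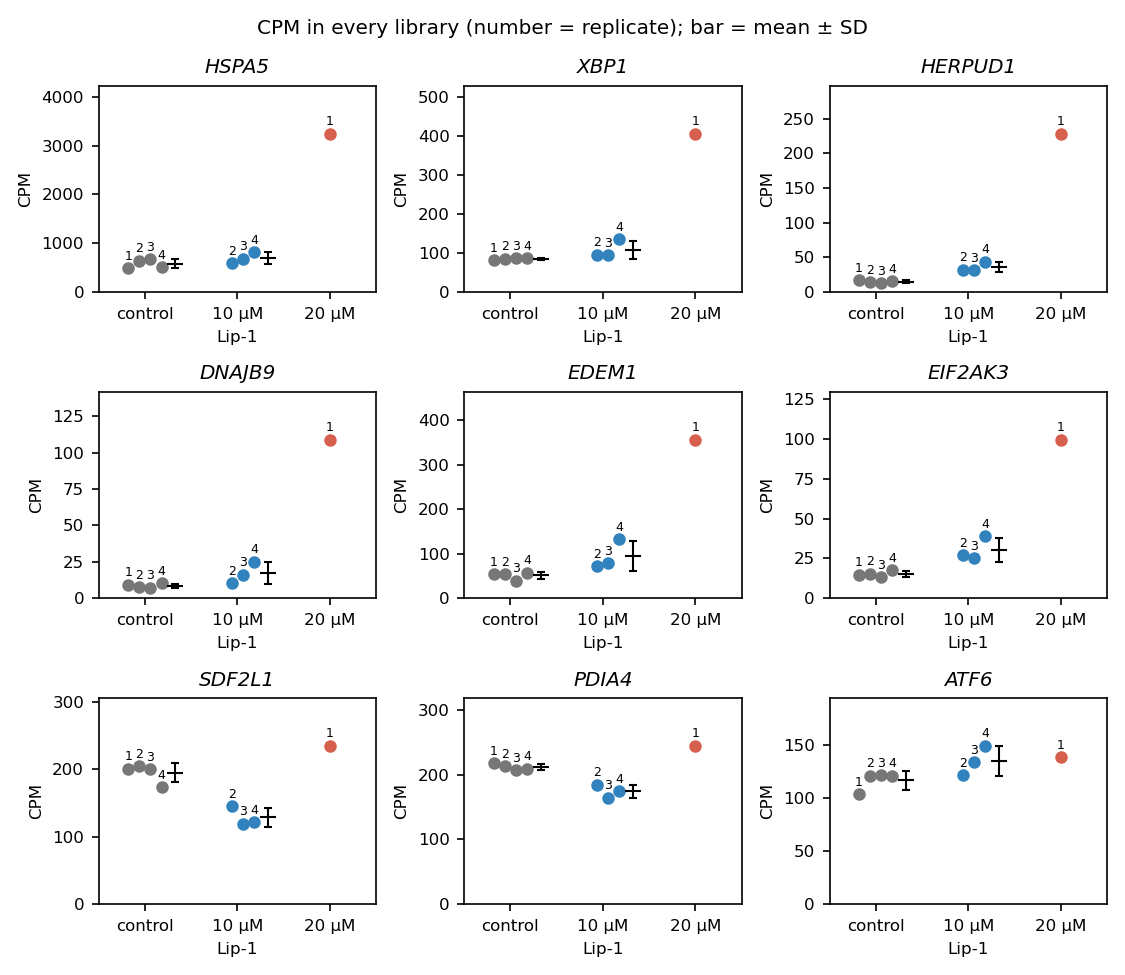
CPM in each library (points, numbered by replicate) for 9 of the genes, by Lip-1 group on the horizontal axis, with the mean ± SD of each replicated group beside its points. Each vertical axis is linear and starts at 0. The 20 µM library was at 3247 CPM for HSPA5 and 229 CPM for HERPUD1, above every other library, while ATF6 lay within the range of the others.

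The lectin chaperones hold glycoproteins by their trimmed sugars. CALR (calreticulin), the soluble one, stood at 785, 821, 844 and 814 CPM in the controls, at 756, 658 and 623 at 10 µM, and at 846 at 20 µM. The 10 µM libraries were all below the controls, and the 20 µM library was level with the highest control. CALR fell at 10 µM (log2 -0.39, SE 0.11, adjusted p = 0.0406 by edgeR), a call lost with no filter on low counts and without controls 2, 3 or 4 or 10 µM replicates 3 or 4. At 20 µM it differed from 10 µM by 0.31 (adjusted p = 0.200). CANX (calnexin), the membrane-bound one, ran from 1017 to 1381 CPM in the controls, 1253 to 1489 CPM at 10 µM and stood at 1600 CPM at 20 µM. It did not pass in either comparison, but passed at 20 µM over 10 µM with the replicate block (log2 0.69, adjusted p = 0.0120 by edgeR).

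The disulfide isomerases form and reshuffle the bonds between cysteines. P4HB (PDI), the founding member, stood at 579.7, 503, 515 and 536 CPM in the controls, at 496, 461 and 482 at 10 µM, and at 909 at 20 µM. PDIA4 (ERp72) stood at 218, 213, 207 and 209 CPM in the controls, at 185, 164 and 174 at 10 µM, and at 245 at 20 µM. In both, the 10 µM libraries were all below the controls and the 20 µM library above them. PDIA4 fell at 10 µM (log2 -0.41, SE 0.09, adjusted p = 0.0151 by edgeR), though not without 10 µM replicate 3 or 4. P4HB missed the threshold (-0.28, adjusted p = 0.0541) and passed it with the replicate block (-0.26, adjusted p = 0.0420) and in 5 of the other alternatives: DESeq2, limma-voom, a filter at 1 CPM, without 10 µM replicate 2 and without the 20 µM library. At 20 µM over 10 µM, the log2 difference was 0.92 for P4HB (SE 0.13, adjusted p = 0.00140) and 0.49 for PDIA4 (SE 0.13, adjusted p = 0.0234 by edgeR), the latter not passing with the replicate block (adjusted p = 0.0987) or without 10 µM replicate 3.

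PDIA3 (ERp57), the isomerase that works with the lectins, ran from 319.9 to 365 CPM in the controls and 306 to 389 CPM at 10 µM, and stood at 399 CPM at 20 µM. PDIA6 (P5) ran from 312 to 351 CPM in the controls and 304 to 334 CPM at 10 µM, and stood at 301 CPM at 20 µM. Neither passed in any comparison, and PDIA6 was the only one of the 33 genes with the 20 µM library lowest. PDIA3 and PDIA6 overlap ELL3 and ATP6V1C2 on the opposite strand, and whether the authors counted by strand is not given in the sources used here.

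Of the 11 degradation genes, 5 were higher at 20 µM than at 10 µM and 6 did not pass. HERPUD1 (chr16:56932048-56944863), a membrane protein that organises the ubiquitin ligase complex, stood at 16.9, 14.5, 12.7 and 15.7 CPM in the controls, at 32.2, 31.7 and 43.8 at 10 µM, and at 229 at 20 µM. The lowest treated library was thus well above the highest control. HERPUD1 rose 2.41-fold in CPM at 10 µM (log2 1.14, SE 0.12, adjusted p = 0.00118 by edgeR) and was 15.3 times the control mean at 20 µM, the highest ratio of the 33 genes. The log2 difference from 10 to 20 µM was 2.67 (SE 0.17, adjusted p = 9.07e-05 by edgeR). With all 4 treated libraries as 1 group its log2 change was 2.39 (adjusted p = 0.0424), and 1.13 (adjusted p = 0.00155) without the 20 µM library.

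EDEM1 (chr3:5187646-5219957), which trims mannose from misfolded glycoproteins and so marks them for removal, stood at 53.7, 53.5, 39.5 and 57.0 CPM in the controls, at 71.7, 78.9 and 133 at 10 µM, and at 357 at 20 µM. All its treated libraries were above all controls. EDEM1 rose at 10 µM (log2 0.76, SE 0.19, adjusted p = 0.0263 by edgeR), but the change was 0.47 (adjusted p = 0.0716) without 10 µM replicate 4, and the call was also lost without control 2 or 3. At 20 µM it was 1.92 higher than at 10 µM (SE 0.27, adjusted p = 0.00165).

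SYVN1 (HRD1), the ubiquitin ligase of the route, stood at 78.2, 61.4, 62.0 and 66.8 CPM in the controls, at 91.0, 79.5 and 86.7 at 10 µM, and at 200.3 at 20 µM. SEL1L, the adaptor that holds SYVN1 in its complex, stood at 45.6, 48.4, 43.6 and 52.6 CPM in the controls, at 52.3, 67.5 and 99.1 at 10 µM, and at 251 at 20 µM. SELENOS (VIMP), a selenoprotein that ties the exit site to the p97 motor, stood at 46.8, 41.9, 39.1 and 43.2 CPM in the controls, at 42.6, 43.0 and 50.9 at 10 µM, and at 150.2 at 20 µM. The 10 µM libraries were clear of the controls for SYVN1, by a small margin, and overlapped them for SEL1L and SELENOS. None of these 3 genes passed at 10 µM in the main test. SEL1L passed there by DESeq2 (log2 0.47, adjusted p = 0.0424) and without 10 µM replicate 2 (0.65, adjusted p = 0.0191 by edgeR). At 20 µM over 10 µM, edgeR's log2 difference was 1.22 for SYVN1 (SE 0.14, adjusted p = 0.000754), 1.79 for SEL1L (SE 0.25, adjusted p = 0.00153) and 1.72 for SELENOS (SE 0.13, adjusted p = 0.000135). In the annotation SYVN1 overlaps exons of FAU on the same strand and of MRPL49 on the opposite strand, and how the authors counted such reads is not given in the sources used here.

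The other 6 degradation genes did not pass in either comparison of the main tests. By DESeq2, OS9 passed at 20 µM over 10 µM (log2 0.59). OS9, a lectin that hands glycoproteins to SEL1L, ran from 116 to 165 CPM in the controls and 143 to 202 CPM at 10 µM, and stood at 247 CPM at 20 µM. EDEM2, which takes the first mannose, ran from 13.5 to 17.9 and 19.1 to 21.1 CPM, and stood at 28.8 CPM. DERL2, a derlin of the exit channel, ran from 14.4 to 22.6 and 21.9 to 29.1 CPM, and stood at 35.0 CPM. In these 3 genes the 20 µM library was the highest, and DERL2 passed at 10 µM against control with the replicate block only (log2 0.37, adjusted p = 0.0385 by edgeR). DERL3 was the lowest of the 33 genes, at 0.512 to 0.863 CPM in the controls, 0.716 to 1.49 CPM at 10 µM and 2.41 CPM at 20 µM, and it overlaps SMARCB1 on the opposite strand.

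EDEM3 and DERL1 each had 1 control far below the rest. EDEM3 stood at 33.5 CPM in control 1 and 75.2 to 86.9 CPM in controls 2 to 4, at 93.1, 128 and 104 at 10 µM, and at 97.0 at 20 µM. DERL1 stood at 35.1 CPM in control 1 and 86.5 to 89.4 CPM in controls 2 to 4, at 73.6, 85.1 and 90.8 at 10 µM, and at 58.6 at 20 µM. Control 1 and the 20 µM library share replicate number 1. Without the block, the log2 difference at 20 µM over 10 µM was -0.16 for EDEM3 (adjusted p = 0.828) and -0.51 for DERL1 (adjusted p = 0.462), and with it 1.19 (adjusted p = 0.00764) and 0.90 (adjusted p = 0.0140 by edgeR), so both turned direction. Without control 1 and with no block, DERL1 passed as lower (-0.51, adjusted p = 0.0394 by edgeR), opposite to its call with the block.

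**Figure D3:**
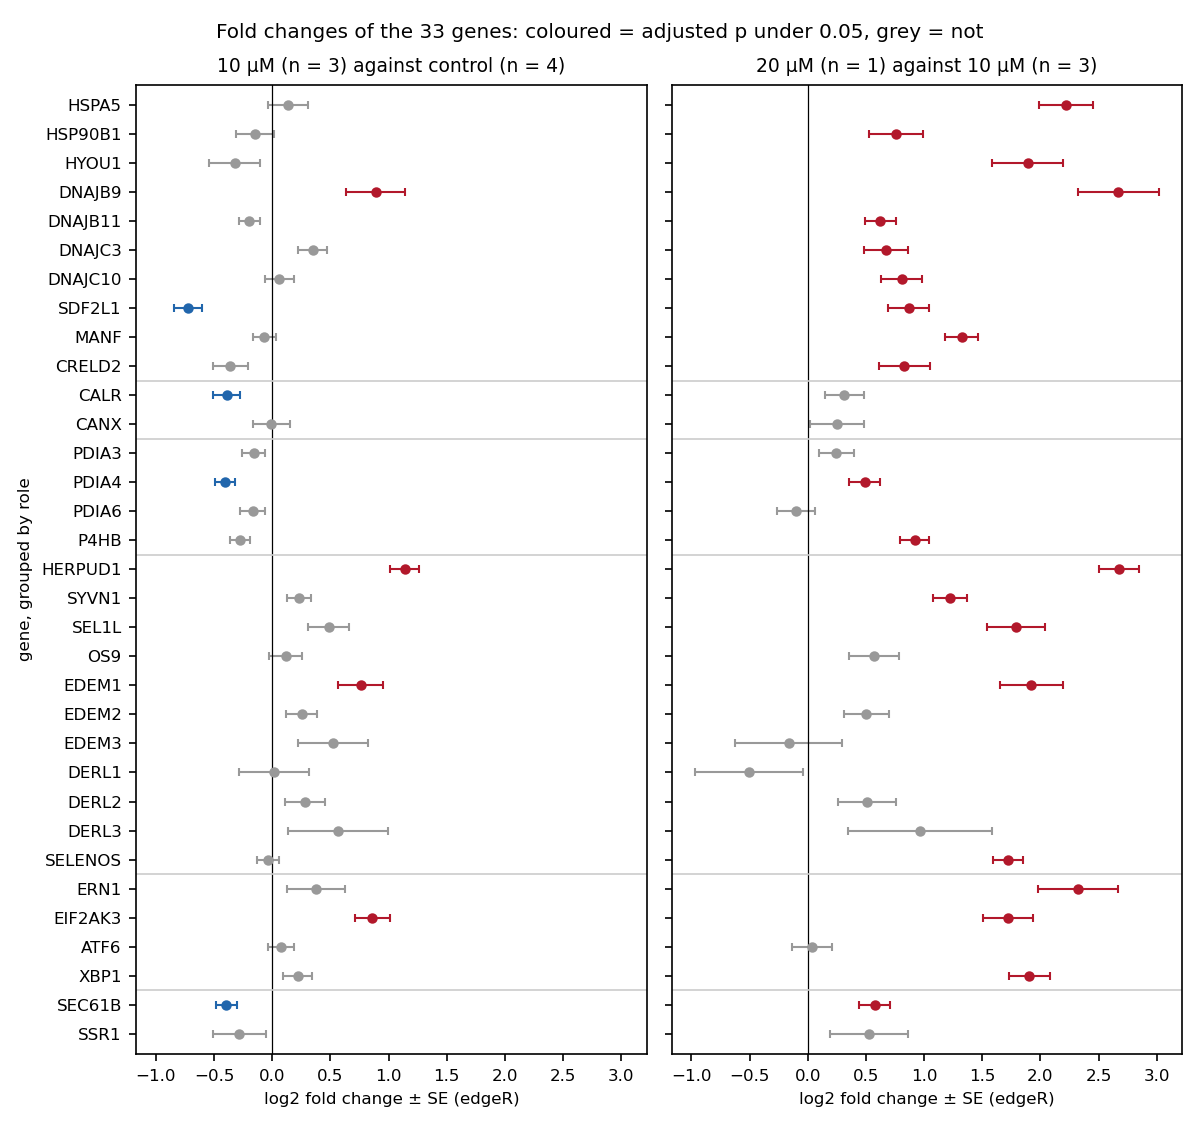
Log2 fold change with its standard error (bars) from edgeR for each of the 33 genes, ordered by role, for 10 µM against control and for 20 µM against 10 µM on the same axis, coloured where the adjusted p was under 0.05 (red higher, blue lower) and grey where it was not. At 10 µM 4 genes lay above 0 and 4 below among those that passed, and at 20 µM all 21 lay above.

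The sensors differed among themselves. EIF2AK3 (PERK, chr2:88556741-88627576), the kinase that slows translation by phosphorylating eIF2 alpha, stood at 14.8, 15.4, 13.3 and 17.5 CPM in the controls, at 27.0, 25.0 and 39.0 at 10 µM, and at 99.7 at 20 µM. All its treated libraries were above all controls. EIF2AK3 rose at 10 µM (log2 0.86, SE 0.15, adjusted p = 0.00684 by edgeR) and was higher again at 20 µM (1.72 over 10 µM, SE 0.21, adjusted p = 0.000962). Over all 4 treated libraries its log2 change was 1.53 (adjusted p = 0.0435), and 0.85 (adjusted p = 0.00678) without the 20 µM library.

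ERN1 (IRE1 alpha, chr17:64039142-64130819), the kinase and nuclease that splices XBP1 mRNA, stood at 20.4, 18.3, 14.3 and 20.2 CPM in the controls, at 17.4, 20.4 and 40.2 at 10 µM, and at 129 at 20 µM. At 10 µM only replicate 4 was above the controls, and the log2 change of 0.37 (adjusted p = 0.341 by edgeR) was -0.05 without it. XBP1 (chr22:28794555-28800597), the transcription factor whose mRNA IRE1 splices, stood at 81.7, 85.5, 86.2 and 87.5 CPM in the controls, at 96.3, 94.5 and 136 at 10 µM, and at 406 at 20 µM. Its 10 µM libraries were all above the controls, without passing the test (log2 0.22, adjusted p = 0.271). At 20 µM over 10 µM, the log2 difference was 2.32 for ERN1 (SE 0.34, adjusted p = 0.00199) and 1.91 for XBP1 (SE 0.18, adjusted p = 0.000328 by edgeR).

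ATF6 (chr1:161766294-161964070), the sensor that is cut to release a transcription factor, stood at 104, 121, 121 and 121 CPM in the controls, at 121, 134 and 149.6 at 10 µM, and at 138 at 20 µM. The 20 µM library lay between the 10 µM libraries. Its log2 change was 0.08 at 10 µM (adjusted p = 0.705) and 0.04 at 20 µM over 10 µM (SE 0.17, adjusted p = 0.902 by edgeR), so at 20 µM it was the sensor gene that did not pass.

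Of the genes of protein entry, SEC61B, the beta subunit of the translocation channel, stood at 90.2, 82.0, 80.3 and 82.6 CPM in the controls, at 72.6, 70.2 and 65.6 at 10 µM, and at 104 at 20 µM. The 10 µM libraries were all below the controls. SEC61B fell at 10 µM (log2 -0.39, SE 0.09, adjusted p = 0.0198 by edgeR), though not without control 3 or 10 µM replicate 3 or 4. It was higher at 20 µM than at 10 µM (0.57, SE 0.13, adjusted p = 0.0137), but not with the replicate block (adjusted p = 0.111). SSR1, a subunit of the translocon-associated complex, ran from 207 to 246 CPM in the controls and stood at 213, 275 and 134 at 10 µM and at 301 at 20 µM, and passed in neither comparison.

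Libraries with the same replicate number gave another view of the same contrast. In pair 1, the 20 µM library over control 1, 32 of the 33 genes were higher, with a median CPM ratio of 2.08. In the 10 µM pairs, 17 genes were higher in pair 2 (median ratio 1.00), 21 in pair 3 (1.10) and 25 in pair 4 (1.23). The matching counts and ratios over all genes were not computed. These ratios carry no TMM factor, which was larger in the treated than in the control library of each pair. Without it the ratios lie higher, so the number of genes above 1 depends on the scaling. These counts and ratios differed among the 3 pairs at the same labelled dose. Whether that is particular to the 33 genes or holds for whole libraries was not tested. Replicate 4 had the highest 10 µM value for HSPA5, DNAJB9, HERPUD1, EDEM1, SEL1L, ERN1, EIF2AK3 and XBP1.

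Levels were compared between genes as CPM per kilobase of exon (GENCODE release 29). In the controls the most abundant were CALR at 300.7 ± 8.92 (SD, n = 4), CANX at 197 ± 28.7, SDF2L1 at 177 ± 12.9, HSP90B1 at 169 ± 30.2 and HSPA5 at 148 ± 23.4 CPM per kilobase. CALR stood clear of the rest, while CANX, SDF2L1 and HSP90B1 lay within their SDs of each other. At 20 µM HSPA5 had moved from rank 5 to rank 1, at 831 CPM per kilobase, above CALR at 312. XBP1 moved from rank 12 to rank 7 and HERPUD1 from rank 30 to rank 15. DERL3 was last in both, at 0.200 ± 0.0440 in the controls and 0.634 CPM per kilobase at 20 µM.

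A further 122 genes of the same pathway were taken as 6 lists by function: translocation (21), glycosylation (18), oxidative folding and other chaperones (29), degradation (31), partners of the sensors (13) and the eIF2 alpha arm downstream of PERK (10). At 10 µM against control, 13 rose and 15 fell by edgeR (23.0% of the 122, beside 19.1% of all genes). At 20 µM over 10 µM, 33 were higher and 6 lower (32.0%, beside 26.3%), with a median log2 difference of 0.18, below the 0.81 of the 33 genes. At 10 µM the share thus lay near the background, and at 20 µM the share that was higher (27.0%) lay above the 11.7% of all genes. The count at 10 µM was 10 without 10 µM replicate 4, 11 without replicate 3, 13 without control 2, 16 without control 3 and 18 without control 4, and that at 20 µM was 26 with the replicate block. With all treated libraries as 1 group, 7 of 121 tested rose and 4 fell (9.09%, beside 14.2%).

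Of these 6 lists, the eIF2 alpha arm had the highest share of calls in both comparisons. At 10 µM, 4 of 10 rose and 1 fell, beside 9.34% and 9.79% of all genes. At 20 µM over 10 µM, 5 of 10 were higher and 0 lower, beside 11.7% and 14.6% of all genes. The list is small and was chosen with earlier results of these data known. Its calls with single libraries left out are not given here. DDIT3 (CHOP), a transcription factor of prolonged ER stress, stood at 24.2, 9.23, 9.95 and 21.7 CPM in the controls, at 48.1, 41.9 and 93.5 at 10 µM, and at 359.9 at 20 µM. ATF4, the factor whose translation rises when eIF2 alpha is phosphorylated, ran from 276 to 314 CPM in the controls and 392 to 439 CPM at 10 µM, and stood at 1005 CPM at 20 µM. Neither gene's treated libraries overlapped the controls. At 10 µM the log2 change was 1.79 for DDIT3 (SE 0.37, adjusted p = 0.0118) and 0.35 for ATF4 (SE 0.10, adjusted p = 0.0369 by edgeR). At 20 µM over 10 µM it was 2.57 (SE 0.50, adjusted p = 0.00647) and 1.28 (SE 0.14, adjusted p = 0.000548). TRIB3, a pseudokinase induced by ATF4 and DDIT3, and PPP1R15A (GADD34), which restores translation by reversing the phosphorylation, rose by 1.07 and 0.70 at 10 µM and were higher by 2.86 and 2.40 at 20 µM on the log2 scale. EIF2S1, which encodes eIF2 alpha itself, fell at 10 µM (log2 -0.57, adjusted p = 0.0149 by edgeR).

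In the degradation list, 5 of 31 rose and 3 fell at 10 µM (25.8%, beside 19.1% of all genes). It had 8 higher and 0 lower at 20 µM over 10 µM (25.8%, beside 26.3%). Both shares of calls lay near those of all genes. The share higher at 20 µM lay above the 11.7% of all genes. HERPUD2, a relative of HERPUD1, rose at 10 µM by a log2 change of 0.58. RNF185, a membrane ubiquitin ligase, rose by 0.56 at 10 µM and was higher again by 1.21 at 20 µM. HM13, the signal peptide peptidase, fell by 0.47 at 10 µM and was higher by 1.25 at 20 µM.

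Oxidative folding and other chaperones had 2 of 29 up and 4 down at 10 µM (20.7%, beside 19.1% of all genes). They had 7 higher and 3 lower at 20 µM over 10 µM (34.5%, beside 26.3%). ERO1B, an oxidase that recharges PDI, rose by 0.83 at 10 µM and was 1.11 higher at 20 µM on the log2 scale, and HSPA13, a microsomal HSP70-like protein, by 0.74 and 1.20. PRDX4, the ER peroxiredoxin, fell at 10 µM (log2 -0.63, SE 0.14, adjusted p = 0.0172 by edgeR). TMX1 and TMX2, membrane-bound thioredoxin relatives, were lower at 20 µM than at 10 µM (log2 -1.14 and -0.88).

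The counts of each list below stand beside these shares of all genes. At 10 µM, 19.1% of all genes were called (9.34% higher and 9.79% lower). At 20 µM over 10 µM it was 26.3% (11.7% higher and 14.6% lower). Each list holds few genes, and a difference from these shares was not tested. Translocation genes had 0 of 21 up and 4 down at 10 µM, and 6 higher and 2 lower at 20 µM over 10 µM. SEC61A1, the pore of the channel to which SEC61B belongs, ran from 299 to 321 CPM in the controls and 266 to 279 CPM at 10 µM, and stood at 698 CPM at 20 µM (log2 1.35 over 10 µM, SE 0.13, adjusted p = 0.000328 by edgeR). It was below all controls at 10 µM and above them at 20 µM, as SEC61B was. SRP9, of the particle that brings ribosomes to the channel, was lower at 20 µM (log2 -1.03). Glycosylation genes had 2 of 18 up and 2 down at 10 µM (22.2%), and 3 higher and 0 lower at 20 µM (16.7%). Partners of the sensors had 0 of 13 up and 1 down at 10 µM (7.69%), and 4 higher and 1 lower at 20 µM (38.5%). The 1 down at 10 µM was RTCB, the ligase that joins spliced XBP1 mRNA (log2 -0.53). NFE2L1 (NRF1), an ER-anchored transcription factor of proteasome genes, was 1.93 higher at 20 µM than at 10 µM on the log2 scale, and CREB3L2, an ATF6 relative, was lower (-1.19).

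**Figure D4:**
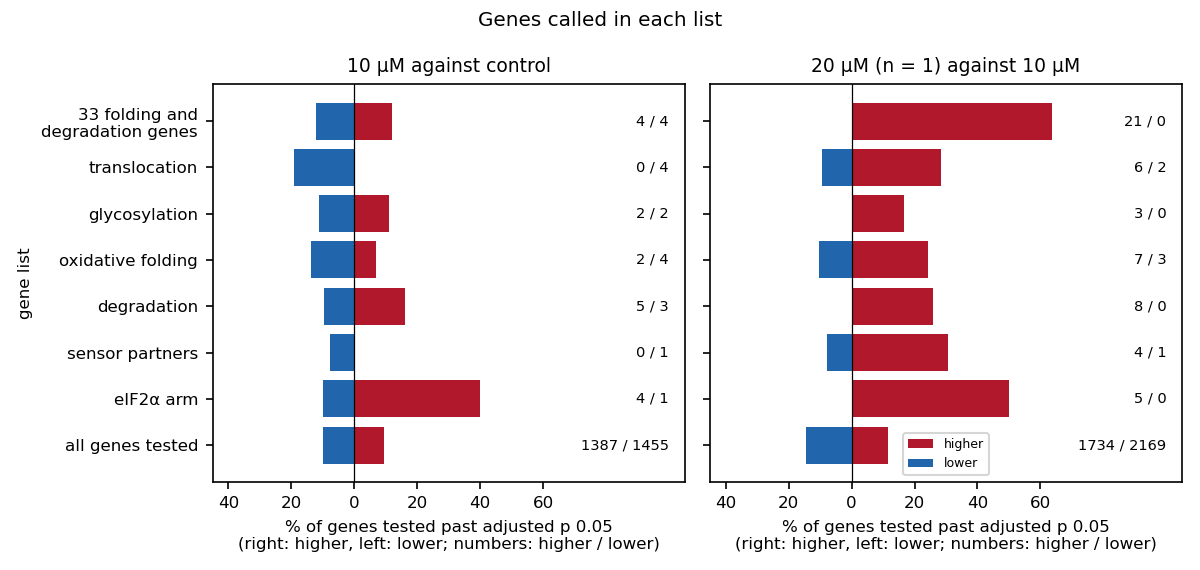
Share of genes past an adjusted p of 0.05 by edgeR (%, horizontal; red bars to the right higher, blue bars to the left lower) for the 33 genes, the 6 lists of other pathway genes and all genes tested, with the counts higher and lower at the right. At 10 µM against control (left) 4 of the 33 genes were higher and 4 lower, and at 20 µM over 10 µM (right) 21 were higher and 0 lower.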

How the data were processed

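RNA of 8 K562 libraries was sequenced after Trizol extraction and removal of ribosomal RNA, per the labels' protocols. The authors deposited 1 table of whole-number counts with genes as rows and libraries as columns, per the file headers. HISAT2, StringTie, DESeq2, limma, bcl2fastq 2.0 and the hg38 build are named in the submitters' processing notes, and their roles and order are not given there. Entries at 4 counts (2958) outnumber those at 1 count (401), so counts need not be single reads. Lines with no gene name (9) were dropped.

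CPM were 1000000 times the count over the library total, with no TMM factor. The main tests ran in edgeR 4.0.16 under R 4.3.3: filterByExpr, TMM scaling, then glmQLFit with a two-sided glmQLFTest, and p-values adjusted by Benjamini-Hochberg over all genes tested (threshold 0.05). The code was run on simulated counts with the same dispersion for every gene and no link between libraries. That run checks the code and cannot show how the tests behave with the spread of these libraries. The SE is the size of the log2 fold change over the square root of F. One fit set 4 treated against 4 control libraries. Another had 3 levels over all 8 libraries, for 10 µM against control and 20 µM against 10 µM. A further fit tested treatment by library naming. Gene positions are from GENCODE release 29.

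Same-numbered control and treated libraries had deviations from their group means (controls and all treated) that correlated at r = 0.251 to 0.453 over genes in all 4 pairs. Every one was over 0.1, the level set for taking the numbers in the labels to pair the libraries. The main tests nonetheless carry no block for these numbers, and results with the block are given as an alternative. Pairs of different numbers ran from -0.483 to 0.310, and some of them were also over 0.1, so that level alone does not set the pairs apart. Each treated library had its highest r with the control of the same number. For treated replicate 2 this was by a narrow gap (0.251 with control 2 and 0.242 with control 3). The labels do not say what a number shares. Alternatives were other scalings, no filter and a filter at 1 CPM, DESeq2 1.42.0, limma-voom 3.58.1, a replicate block, each library left out, and each library naming alone or as a term. The 33 genes and the lists were chosen with earlier results of these data known. For the 33 genes, values in every library are given for those past the threshold in any comparison and for 8 genes set by rule (HSPA5, HSP90B1, XBP1, DNAJB9, EDEM1, ERN1, EIF2AK3 and ATF6), and ranges for most others. Of the other pathway genes, those named are taken from the 3 called higher and the 3 called lower with the largest change in each list and comparison, with DDIT3 and ATF4. Protein sequences were not used here.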

Additional observations from a re-analysis of the deposited data

Results flagged for a closer look

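In 3 of the 33 genes examined, 1 of the 4 controls lay far from the others by Dixon's criterion at 95%, which chance meets in about 1 of 20 groups. SDF2L1 was 174 CPM in control 4 and 200.3 to 204 CPM in the other controls. DERL1 was 35.1 CPM in control 1 and 86.5 to 89.4 CPM in the others. ATF6 was 104 CPM in control 1 and 121 CPM in the others. With control 4 lower for SDF2L1, all 3 libraries at 10 µM were still below all controls.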

How the results depend on the processing

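Of 1549 values of the 33 genes over 3 comparisons and all alternatives, 1416 kept direction and side of the threshold, 46 lost the call and 31 gained it with the direction kept, and 56, none of them a call in the main tests, turned direction. With all treated libraries as 1 group, the count among the 33 genes (2) was 5 by DESeq2, 0 by limma-voom (6 with an unadjusted p under 0.05), 8 in digit-named libraries, 0 in letter-named libraries and 4 with naming as a term. The calls over all genes were 3395, 1657, 3137, 0 and 3348, beside 1855. The count ran from 0 to 9 when 1 library was left out. The pathway count (11) was 31, 7, 20, 0 and 25 under those settings, and 0 to 28. At 10 µM against control the counts with 1 library left out were 3 to 10 (33 genes) and 10 to 31 (pathway). For 20 µM over 10 µM they were 18 to 22 and 29 to 42.

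The log2 change of HSP90B1 in all treated libraries turned direction, to -0.02 without control 1, -0.15 without the 20 µM library and -0.38 in digit-named libraries (adjusted p = 0.0268 by edgeR), where HYOU1 was -0.73 (adjusted p = 0.0103 by edgeR), XBP1 -0.0032, HSPA5 -0.20 and ATF6 -0.082. With 1 library left out, HSP90B1 in all treated ran from -0.15 to 0.18, ERN1 at 10 µM from -0.053 (without 10 µM replicate 4) to 0.56, and ATF6 at 20 µM over 10 µM from -0.030 (without 10 µM replicate 2) to 0.065. P4HB in all treated was -0.28 (adjusted p = 0.0447 by edgeR) without the 20 µM library. DNAJC3 passed at 10 µM with upper-quartile scaling (log2 0.38, adjusted p = 0.0497 by edgeR). The cause was not tested. By DESeq2, HERPUD1 and HSPA5 had no adjusted p in the treated comparison.

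With the replicate block the counts of the 33 genes were 2 (from 2), 10 (from 8) and 21 (from 21, 18 of them shared) in the treated, 10 µM and 20 µM comparisons, and those of the pathway 16 (from 11), 41 (from 28) and 26 (from 39). EDEM3 (1.19) and DERL1 (0.90) turned direction with it at 20 µM over 10 µM. It changed no call of the 33 genes other than those given beside the results. With the block the calls over all genes went from 1855 to 2815 in the treated comparison and from 2842 to 4657 in the 10 µM comparison. In the 20 µM comparison they went the other way and fell with the block, as those of the pathway did. The single 20 µM library limits every statement on that dose.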
